A study of Homo sapiens with 6 samples.

Results

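In the authors' deposited region table, 926 regions had an intermediate methylation level in both genotypes of M07e cells. M07e is an established line of human acute megakaryoblastic leukemia that carries the CBFA2T3-GLIS2 fusion and was grown with the cytokine GM-CSF. The members were chosen by the values themselves. A region was taken when it held at least 5 sites and its group mean lay from 35% to 65%, limits included, both in the control and in the DNMT3B knockout. The table lists 35130 regions, of which 34885 hold at least 5 sites, so the members are 2.65% of those that could qualify. The levels and the difference between genotypes were therefore fixed in part by the choice and are given as a description, with no test.

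The study compared 3 libraries of unedited M07e cells (genotype WT) with 3 libraries of M07e cells in which DNMT3B had been knocked out with CRISPR, by reduced representation bisulfite sequencing. That assay reads MspI fragments, which lie mostly in CpG-rich DNA. The labels do not say whether the knockout is 1 clone or a pool, nor whether the libraries of a group came from separate cultures. The files give 1 mean per group and region, so depth and the spread between libraries are unknown, and no test over libraries was possible. The column read as the knockout, M07e_3883, has a name that no label uses. It was taken as the knockout because the other column is named WT, and every direction given here depends on that reading.

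DNA methylation in mammals sits mainly on cytosines of CpG dinucleotides. DNMT3B adds it to unmethylated DNA, and DNMT1 copies it to the new strand after replication. Most CpGs are either largely methylated or, in CpG islands at gene starts, largely unmethylated. Intermediate levels are known from imprinted control regions and from CpG islands of the inactive X chromosome, where 1 allele carries the mark and the other does not. They also arise where cells of a population differ, where neighbouring sites differ, or where libraries averaged together differ. A group mean does not separate these cases.

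The sequences of 7 of the 29 members that lie wholly within 250 bases upstream of a gene's RefSeq start, picked after their values were seen, are shown because they give the DNA on which an intermediate level was read right beside a gene start. They are taken from RefSeq promoter windows (GRCh38.p14) and printed on the strand of the gene, with every CpG in capitals and 1 base added at each end. DSC3 encodes a desmosomal cadherin, DGKI a diacylglycerol kinase, COL4A3 a basement membrane collagen chain, DPPA5 a protein of pluripotent cells, FHIT a tumor suppressor at a fragile site, POU3F4 a POU-domain factor and SYTL4 a protein of vesicle docking.
DSC3 (chr18:31042753-31042912, minus strand): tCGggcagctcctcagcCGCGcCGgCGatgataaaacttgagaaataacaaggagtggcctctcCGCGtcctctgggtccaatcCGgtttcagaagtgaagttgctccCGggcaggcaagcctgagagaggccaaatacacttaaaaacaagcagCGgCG
DGKI (chr7:137847054-137847141, minus strand): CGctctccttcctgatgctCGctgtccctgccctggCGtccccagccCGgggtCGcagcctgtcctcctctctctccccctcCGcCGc
COL4A3 (chr2:227164404-227164442, plus strand): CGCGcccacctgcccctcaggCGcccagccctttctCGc
DPPA5 (chr6:73354281-73354379, minus strand): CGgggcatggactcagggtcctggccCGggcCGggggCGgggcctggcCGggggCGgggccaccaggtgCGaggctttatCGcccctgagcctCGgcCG
FHIT (chr3:61251517-61251544, minus strand): CGcatgctctgCGCGtattggcctcCGc
POU3F4 (chrX:83508140-83508162, plus strand): gCGagccCGacctccCGcacCGc
SYTL4 (chrX:100732130-100732187, minus strand): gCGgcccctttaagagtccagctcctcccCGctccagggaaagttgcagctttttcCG

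Each stretch holds several CpGs within a short distance. Not every CpG in capitals was measured, and which of the inner ones were is not given. The DPPA5 stretch holds 10 CpGs and had 5 sites, and the DGKI stretch holds 7 CpGs and had 6 sites. At DSC3 the region carried 14 measured cytosines, and its mean was 60.3% in the control and 61.1% in the knockout. DGKI stood at 59.4% and 58.9% over 6 sites, 81 bases before the nearest start. DPPA5 stood at 35.6% and 35.1% over 5 sites, just above the lower limit. These 3 had nearly the same mean in both genotypes. The COL4A3 region, which also lies upstream of COL4A4 on the opposite strand, had 45.3% in the control and 40.2% in the knockout. Larger differences stood at FHIT (36.98% and 59.0%), POU3F4 (49.9% and 39.2%) and SYTL4 (64.99% and 44.0%), the last of them at the upper limit.

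Across the 926 members the median level was 47.4% in the control (quartiles 40.4% and 57.0%) and 50.5% in the knockout (42.1% and 58.5%). By the 2 means, 510 members were higher in the knockout and 416 lower. The difference in the authors' deposited table was above 0 in 511 and below 0 in 415, with a median of 2.95 points. Over all regions of at least 5 sites, the difference in the authors' deposited table was above 0 in 68.5%, with a median of 17.8 points. The limits hold the difference of the 2 means to 30 points in either direction, so the smaller value follows from the choice. In 3 members the deposited difference departs from the difference of the 2 means by more than 1 point, at HHEX with the opposite sign.

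**Figure D1:**
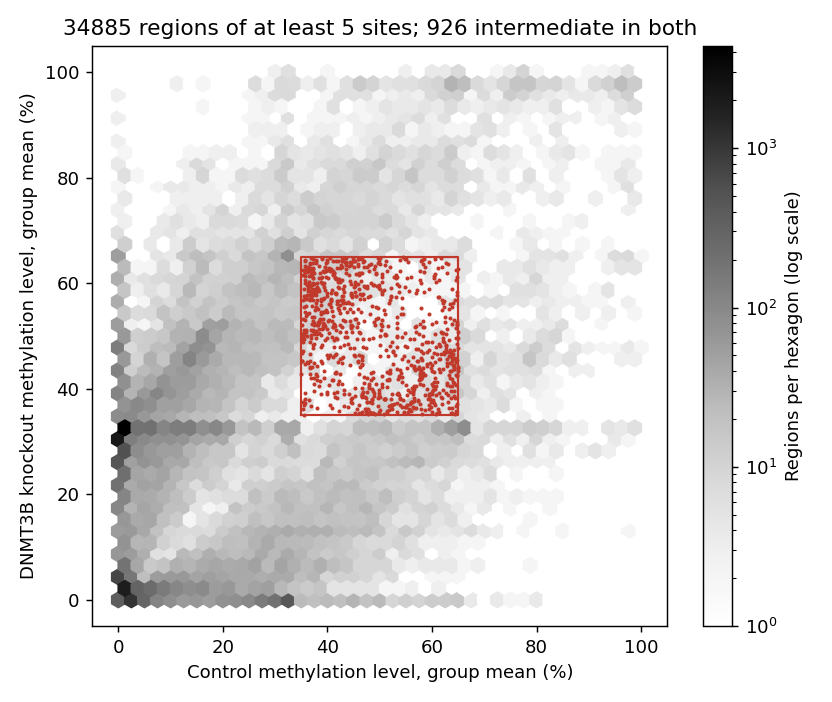
Methylation level of each region of at least 5 sites in the control (horizontal axis, %) and in the DNMT3B knockout (vertical axis, %), as the authors' group means; grey hexagons count all 34885 regions on a log scale and red points are the 926 members inside the box from 35% to 65%. Regions with nearly equal intermediate levels in both genotypes are sparse: within the box, the points thin out along the diagonal between its lower left and upper right corners.

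Most members did not have the same group mean in the 2 genotypes. The spread between libraries is unknown, so these differences are not shown to exceed it. The absolute difference had a median of 13.4 points. It was within 5 points in 142 members (15.3%), within 10 points in 315 (34.0%), and 20 points or more in 195. Both means lay between 45% and 55% in 60 members. The longest of these by sites was inside ESRRB, an orphan nuclear receptor gene, with 54.0% in the control and 54.2% in the knockout over 14 sites (chromosome 14, 76376316 to 76376413). A region 14161 bases from NSD1, a histone methyltransferase gene, had 49.7% and 53.4% over 12 sites. A region within SELENOO, a selenoprotein gene, had 50.4% and 51.9% over 9 sites. These 3 were chosen after their values were seen.

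The thin diagonal is a property of the table at intermediate levels and not of the box. Of the 4810 regions with a control mean from 35% to 65%, whatever their knockout mean, 168 (3.49%) lay within 5 points of the control in the knockout. Of equally wide windows of 10 points, that from 15 to 25 points below the control held 814 (16.9%) and that from 15 to 25 points above it held 498 (10.4%). No source used here says how the regions of the table were selected. Whether regions of equal level were left out was not tested, and the 926 members cannot be read as a count of intermediate regions in the genome of M07e.

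An intermediate mean in the control went with an intermediate mean in the knockout no more often than in the table at large. Of the 4810 regions at 35% to 65% in the control, 926 were also there in the knockout (19.3%, exact binomial 95% interval over regions 18.1 to 20.4). Among the other 30075 regions the share was 20.0% (19.5 to 20.5). More of the 4810 were below 35% in the knockout (2615, 54.4%) than above 65% (1269, 26.4%). Among regions below 35% in the control, these knockout shares were 77.7% and 3.25%. Among regions above 65% in the control they were 26.8% and 37.7%. Read from the knockout, 926 of 6941 intermediate regions were intermediate in the control (13.3%), beside 13.8% of all regions. These intervals reflect only how many regions were counted. The table held few regions of equal level, as given above. These shares therefore do not show whether intermediate levels were kept between genotypes in the genome of M07e.

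**Figure D2:**
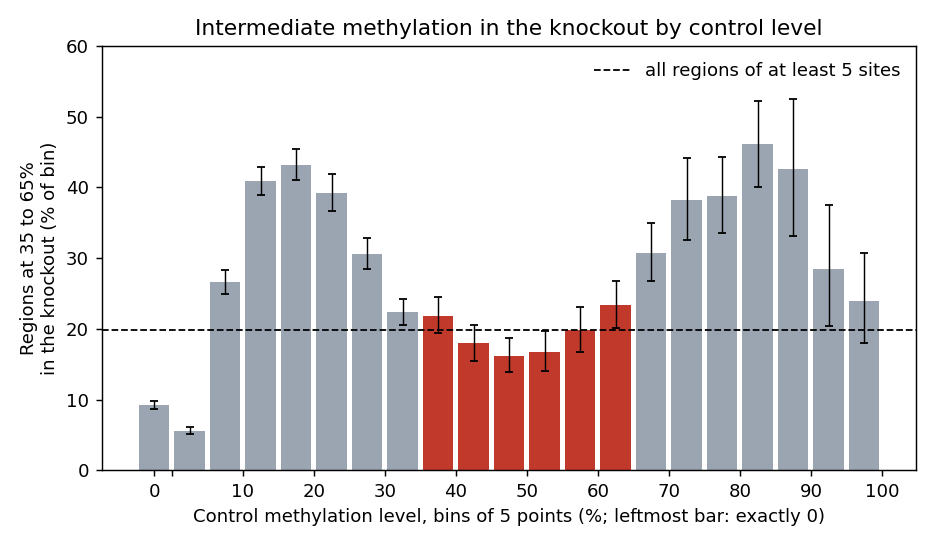
Share of regions with a knockout mean from 35% to 65% (vertical axis, %) by control level in bins of 5 points (horizontal axis, %), with exact binomial 95% intervals over regions; red bars are control levels inside the band and the dashed line is the share over all 34885 regions, 19.9%. The red bars run from 16.2% to 23.3%, below every bar from 5% to 30% and from 65% to 100%, and the highest bars are 43.2% at control levels of 15% to 20% and 46.1% at 80% to 85%.

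By control level, the share dipped in the middle of the band. It was 21.9% for control means above 35% and up to 40%, 16.2% from 45% to 50%, 16.7% from 50% to 55% and 23.3% from 60% to 65%. Outside the band it was 43.2% for control means from 15% to 20% and 46.1% from 80% to 85%, and it was 9.24% for regions at exactly 0. The comparison depends on which regions count as the rest. Without regions at exactly 0 in the control, the share over all regions was 23.7%, above that of the regions intermediate in the control.

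Members had fewer sites than regions of the table at large, and regions high in both had fewer still. A site here is a CpG cytosine on 1 strand, so a fully covered CpG counts as 2 sites. Of the members 452 (48.8%) held exactly 5 sites, against 40.1% of all regions of at least 5 sites, and 130 (14.04%) held 10 or more, against 22.6%. Of the regions high in both, 55.9% held exactly 5 sites and 8.09% held 10 or more. The highest number was 25. Of regions with 5 sites 3.23% were members, of those with 6 to 9 sites 2.64%, with 10 to 14 sites 2.10%, and with 15 or more 0.930% (28 of 3012, 95% interval 0.619 to 1.34).

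**Figure D3:**
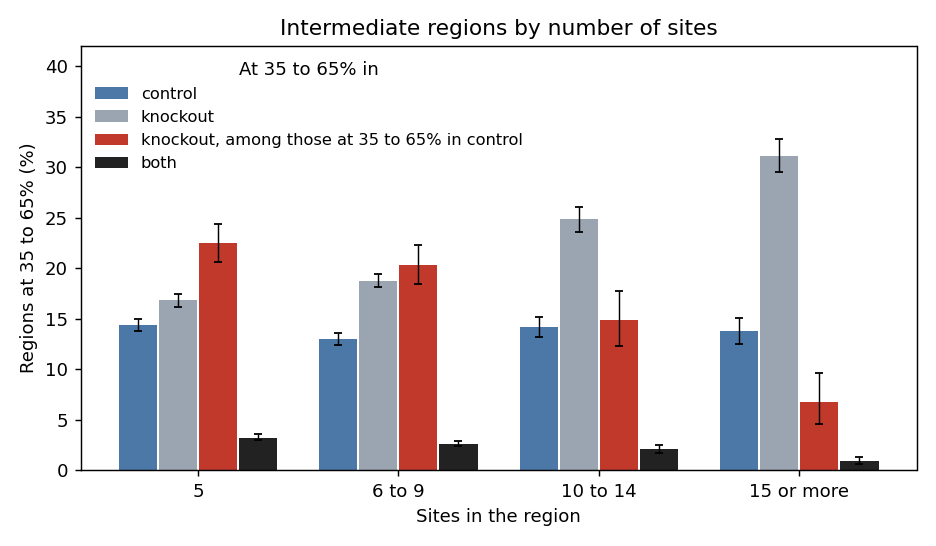
Share of regions with a mean from 35% to 65% (vertical axis, %) by number of sites (horizontal axis), in the control, in the knockout, in the knockout among those at 35% to 65% in the control, and in both, with exact binomial 95% intervals over regions. The share in the control stays between 13.0% and 14.4%, the share in the knockout rises from 16.8% to 31.1%, and the share intermediate in the knockout among regions intermediate in the control falls from 22.5% to 6.76%.

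The 2 genotypes behaved differently with the number of sites. In the control, 14.4% of regions with 5 sites and 13.7% of those with 15 or more were intermediate. In the knockout the shares were 16.8% and 31.1%. Among regions intermediate in the control, the share that was intermediate in the knockout as well was 22.5% with 5 sites, 20.3% with 6 to 9, 14.8% with 10 to 14 and 6.76% with 15 or more (4.54 to 9.63). Regions of 5 sites thus lay above the share of all such regions in the knockout (16.8%), and regions of 15 or more far below it (31.1%). The scarcity of regions of equal level bears on these shares too, and its part in the fall was not tested.

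Members lay away from gene starts and ends. Within 1000 bases of either end of a RefSeq gene were 297 members (32.1%), against 42.02% of all regions of at least 5 sites. In gene interiors lay 397 (42.9%, against 41.8%), and in intergenic sequence 232 (25.1%, against 16.2%). Of regions over 65% in both genotypes, 29.6% lay near a gene end and 20.9% in intergenic sequence. Of regions under 35% in both it was 45.8% and 14.3%. Of intergenic regions 4.11% were members, of gene boundary regions 2.03%. On chromosomes with RefSeq start sites in the table used here, 182 of 888 members (20.5%) lay within 1000 bases of a start, against 35.9% of regions under 35% in both genotypes and 19.2% of regions over 65% in both. The median distance to a start was 12490 bases for members, 5511 for regions low in both and 11785 for regions high in both.

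**Figure D4:**
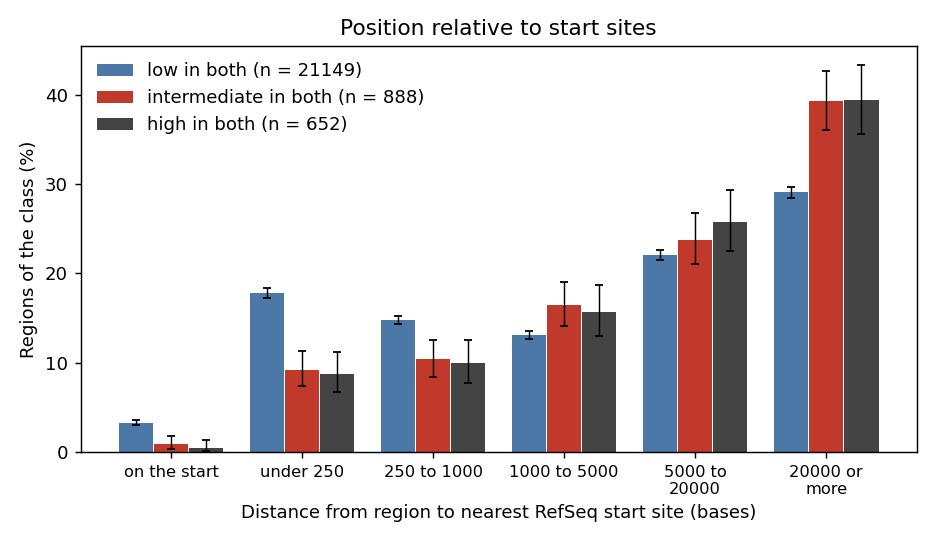
Distance from each region to the nearest RefSeq start site (horizontal axis, classes in bases) and share of each class (vertical axis, %), for regions under 35% in both genotypes, members, and regions over 65% in both, with exact binomial 95% intervals over regions. Members follow the regions high in both: 39.3% and 39.4% lie 20000 bases or more from a start, against 29.1% of regions low in both.

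The distance from starts was clear among regions with few sites and less so among those with many. With 5 to 9 sites, 19.6% of members lay within 1000 bases of a start, against 36.1% of regions low in both. With 10 or more sites it was 26.02% (18.5 to 34.7), against 34.9% (33.4 to 36.3), so that these 2 intervals overlap. Members resembled the regions low in both in length (median 57 bases against 59) and in CpG sites per 100 bases (11.1 against 12.2). The regions high in both were shorter (32 bases) and denser (19.6 sites per 100 bases).

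Of the members, 52 touched a RefSeq promoter window, from 250 bases before to 50 bases after a start. The 61 windows concerned held a median of 25 CpGs per window (quartiles 15 and 33), against 30 in the 4125 windows with any region of at least 5 sites and 14 in all 34943 windows. The ratio of observed to expected CpG was 0.754, 0.855 and 0.577 in the same order. The MspI site CCGG, which reads the same on both strands, was present in 60 of the 61 windows, in all but 1 of the 4125 and in 63.1% of all windows. The assay cuts there, so its presence follows from the method.

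Members were found on every autosome and on X. The share of regions of at least 5 sites that were members ran from 1.502% on chromosome 15 to 3.70% on chromosome 21. On X, 30 of 1103 regions were members (2.72%, 1.84 to 3.86), and on the autosomes 896 of 33772 (2.65%, 2.48 to 2.83). In the control, 10.7% of X regions were intermediate (8.94 to 12.7) and 13.9% of autosomal ones (13.5 to 14.3). Of X regions intermediate in the control, 25.4% were so in the knockout (17.9 to 34.3), against 19.1% on the autosomes (18.0 to 20.3), with intervals that overlap.

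The 5 X-linked members with most sites near protein-coding genes differed in direction. EFHC2, a gene of a ciliary EF-hand protein, had 36.9% in the control and 57.7% in the knockout over 12 sites (44283523 to 44283928). NHS, the gene of Nance-Horan syndrome, had 55.1% and 36.6% over 11 sites, and another member with 40.1% and 61.0% over 5 sites. GPR101, an orphan receptor gene, had 55.1% and 38.8% over 9 sites. POU3F4, shown above, and HMGB3, a chromatin protein gene (46.5% and 38.6%, 8 sites), were also lower in the knockout. SUV39H1, a histone methyltransferase gene, had 35.4% and 49.5% over 6 sites, and BCOR, a transcriptional corepressor gene, 51.0% and 38.1% over 5, both named after their values were seen. Members on X thus did not share a direction.

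Imprinted genes, where intermediate methylation is the textbook case, held 4 members. Of 57 imprinted genes in the annotation, 47 had a region of at least 5 sites and 4 had a member (8.51%), against 5.003% of all genes with such a region. Counted over regions it was 4 of 148 (2.70%), against 2.65% of all. In the control 16 of the 148 regions (10.8%) were intermediate, against 13.8% of all regions. Their median level was 3.35% in the control and 30.6% in the knockout, against 7.50% and 30.95% over all regions.

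The 4 imprinted members lay in GNAS, PLAGL1, HERC3 and TRAPPC9. The GNAS member was within the gene that encodes a stimulatory G protein subunit and several imprinted transcripts. Over its 13 sites the level was 37.2% in the control and 62.8% in the knockout. It spans 58856050 to 58856272 of chromosome 20 and lies 3069 bases from the nearest GNAS start and 5148 bases from GNAS-AS1. PLAGL1, a zinc finger gene, had 52.9% and 46.5% over 5 sites (chromosome 6, 143942232 to 143942301), 62615 bases from HYMAI, an imprinted RNA gene that shares a start with it. HERC3 had 64.96% and 49.6% over 6 sites (chromosome 4, 88590420 to 88590475), 105438 bases from NAP1L5, the imprinted gene in its span. TRAPPC9 had 62.8% and 46.9% over 8 sites (chromosome 8, 140220965 to 140221015), 120430 bases from PEG13, the imprinted RNA gene in its span. The last 3 members therefore lay far from the imprinted transcripts named beside them.

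At the starts of imprinted genes no region was a member. Within 1000 bases of a RefSeq start of 22 of these genes lay 41 distinct regions of at least 5 sites, a set looked at after the data were seen. In the control 2 of them were intermediate and in the knockout 7, none in both, and their median level was 2.64% and 24.0%. The 2 were at L3MBTL1, a polycomb-related gene, with 36.7% in the control and 13.3% in the knockout, and MAGEL2, a gene of the Prader-Willi region, with 48.0% and 6.67%. MEST had 0% in the control and 33.05% in the knockout over 33 sites, and 0% and 33.2% over another 20. Neither MEST region had a q under 0.01 in the authors' deposited table. Such levels were common, since the median knockout level was 32.2% over all 9133 regions at exactly 0% in the control. At SNRPN the levels were 0.978% and 4.06% over 7 sites. At the start of HYMAI and PLAGL1 they were 13.8% and 30.2% over 15 sites. At H19, 531 bases from the start, they were 33.02% and 52.0% over 7 sites, just outside the lower limit. In the authors' deposited table, this H19 region and the 15 sites of HYMAI and PLAGL1 had a q under 0.01. So did regions at IGF2R (2.64% and 30.7% over 58 sites), ZDBF2 (8.92% and 41.5% over 32) and GRB10 (10.0% and 46.0% over 20). All of these were higher in the knockout, and no other of the 41 regions had such a q. Among the 4810 regions intermediate in the control, knockout means were more frequent some points below the lower limit than at it, with 220 from 31% to below 33%, 104 from 33% to below 35% and 68 from 35% to below 37%.

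**Figure D5:**
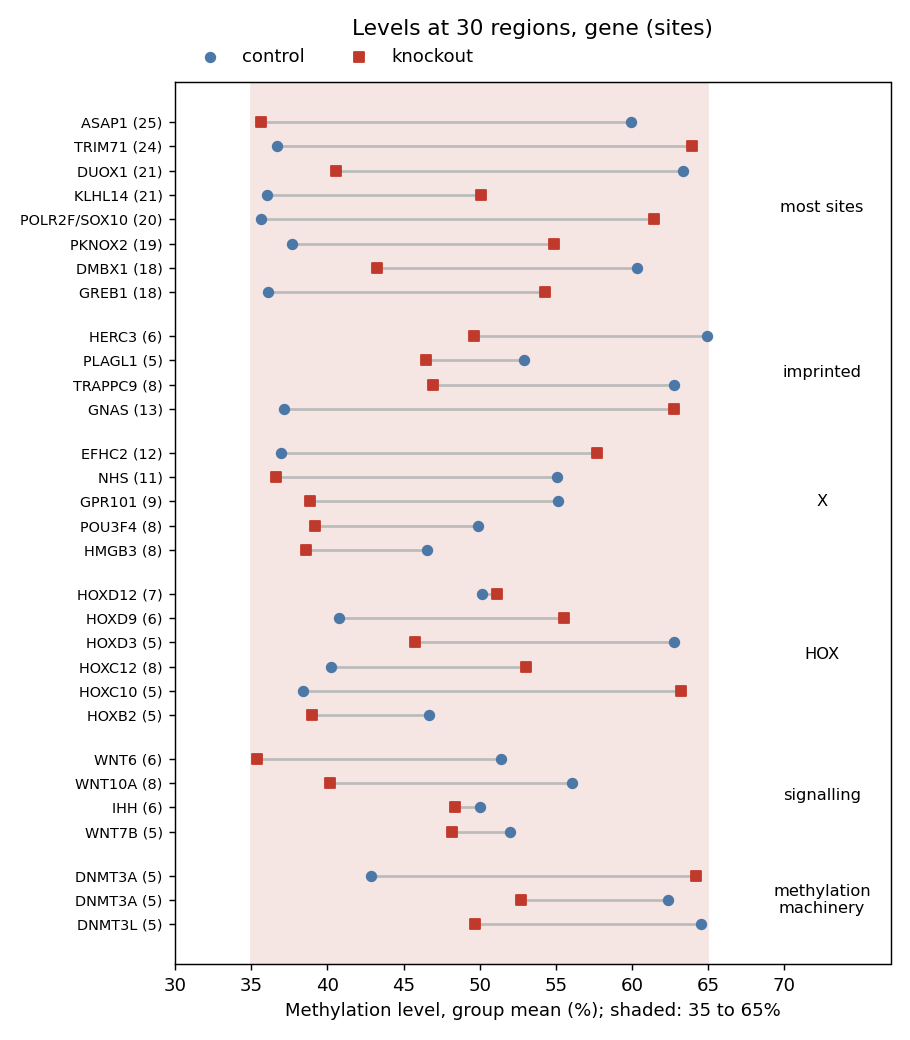
Methylation level in the control (blue circles) and in the DNMT3B knockout (red squares), authors' group means in % on the horizontal axis, at members of 6 kinds: most sites, imprinted genes, X, HOX genes, signalling genes and DNA methylation machinery; the number of sites is in brackets. All points lie inside the shaded band by choice; among the imprinted members GNAS is higher in the knockout and the other 3 are lower.

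HOX genes, which set positional identity, held 6 members in 6 of 38 genes (15.8%, against 5.003% of all genes), or 6 of 115 regions (5.22%, against 2.65%). In the control 19.1% of their regions were intermediate and in the knockout 27.0%, against 13.8% and 19.9% of all. HOXC12 had 40.2% in the control and 53.1% in the knockout over 8 sites. A region 401 bases from HOXD12 had 50.2% and 51.1% over 7 sites, nearly level between genotypes. HOXD9 (40.7% and 55.6%) and HOXC10 (38.4% and 63.2%) were also higher in the knockout, and HOXD3 (62.8% and 45.7%) and HOXB2 (46.7% and 38.98%) lower. The list holds clustered genes, whose regions are close to one another.

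Signalling genes of the BMP, WNT, NOTCH and hedgehog pathways held 4 members among 185 regions (2.16%, against 2.65% of all regions). All 4 were lower in the knockout and lay within the genes. WNT10A, a WNT ligand, had 56.1% in the control and 40.2% in the knockout over 8 sites. WNT6, its neighbour on chromosome 2, had 51.4% and 35.4% over 6 sites. IHH, the ligand Indian hedgehog, had 50% and 48.4% over 6 sites, and WNT7B had 52.0% and 48.2% over 5. In the control 21.1% of the regions of this list were intermediate, against 13.8% of all.

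The DNA methylation machinery held 3 members among 45 regions (6.67%, against 2.65% of all regions), none of them at DNMT3B. DNMT3A, the other active de novo methyltransferase, had a member with 42.8% in the control and 64.2% in the knockout and another with 62.4% and 52.7%, each over 5 sites (chromosome 2, 25234523 to 25234584 and 25305938 to 25305972). A region 6110 bases from DNMT3L, which encodes a partner without catalytic activity, had 64.5% and 49.7% over 5 sites. Stem and progenitor cell genes held 2 members among 39 regions (5.13%): MECOM, a leukemia-associated factor, at 54.2% and 36.6% over 8 sites, and CRHBP at 56.9% and 52.0% over 5. Megakaryocyte and platelet genes held 1 among 57 (1.75%), inside ZFPM1, the cofactor of GATA1, with 46.7% and 44.4% over 5 sites.

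The remaining lists held few members or none, where 2.65% of all regions were members. Clustered protocadherins held 2 among 42 regions (4.76%), both within PCDHB15, an adhesion protein gene, with 40% and 51.2% in the control and 49.7% and 47.3% in the knockout. Loci known to vary between people or cells held 2 among 45 (4.44%), both inside EXD3. They stood at 63.2% and 46.1% over 10 sites and 58.4% and 64.7% over 5. Zinc finger genes held 12 among 671 (1.79%), 8 higher and 4 lower in the knockout. The one with most sites, inside ZNF831, had 60.1% in the control and 37.4% in the knockout over 10, and one of 7 sites shared by ZNF28 and ZNF600 had 50.1% and 38.5%. No member fell on the 80 regions of CBFA2T3-GLIS2 signature genes, the 70 of tumor suppressor genes methylated in leukemia, the 36 of erythroid genes, the 16 of germline genes or the 3 of X-inactivation genes. These lists are small, and no test was made of any list.

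Members were spread over many genes. In all, 595 of 11390 protein-coding genes with a region of at least 5 sites had a member, and 530 of them had exactly 1. RBFOX3, a splicing factor gene of neurons, had 5 members among 54 regions, with control levels from 42.3% to 63.4% and knockout levels from 42.1% to 60.8%. PRDM16, a zinc finger factor gene of stem cells and leukemia, had 4 among 69, and PTPRN2, a secretory granule phosphatase gene, 4 among 78. CACNA1H, a calcium channel gene, had 3 among 32, named first by symbol among 8 genes with 3. Of the 5 RBFOX3 members 2 were higher in the knockout. One lay 5216 bases outside the gene (42.3% and 60.8% over 7 sites), and the other had 48.7% and 49.7% over 7. Of the 4 PRDM16 members 1 was higher.

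Members rarely adjoined one another. Only 41 of the 926 lay within 1000 bases of another member, in 20 runs of at most 3. The run with most sites, 23, was in GREB1, an estrogen-responsive gene, where 18 sites with 36.1% in the control and 54.3% in the knockout were followed by 5 at 59.4% and 64.0%. A run near ENPP7, an intestinal sphingomyelinase gene, joined 10 sites at 41.0% and 62.4% to 11 at 56.7% and 43.6%, which moved in opposite directions. A run upstream of KCNJ3, a potassium channel gene, joined 9 sites at 35.4% and 50.8% to 9 at 48.3% and 41.7%. The run of 3 lay at TLL1, a tolloid-like protease gene, where all 3 regions of the table were members, at 38.7%, 43.6% and 42.1% in the control and 61.9%, 64.1% and 45.02% in the knockout.

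Regions next to members were intermediate more often than regions of the table at large, as were those next to regions high in both. Of the members 401 (43.3%) had another region of at least 5 sites within 1000 bases, against 32.1% of all regions. The nearest such neighbour was itself a member in 36 cases (8.98%), against 3.64% beside any region and 2.66% beside regions low in both. It was intermediate in the control in 24.9% of cases, against 15.9% beside any region, and in the knockout in 32.7%, against 20.3%. Beside regions high in both the shares were 22.0% in the control and 31.7% in the knockout, and beside regions intermediate in the control only 21.7% and 24.2%. The neighbours of members had a median of 20.7% in the control and 32.5% in the knockout, below the members' own levels, and 44.9% of them were under 35% in both genotypes.

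The members with most sites near protein-coding genes lay within 5 points of a limit in at least 1 genotype. So did most members, since only 316 of the 926 had both means from 40% to 60%. ASAP1, a focal adhesion protein gene, had 59.95% in the control and 35.6% in the knockout over 25 sites (chromosome 8, 130443475 to 130443552). A region 65 bases upstream of TRIM71, an embryonic ubiquitin ligase gene, had 36.7% and 63.9% over 24 sites (chromosome 3, 32817545 to 32817932). DUOX1, an oxidase gene, had 63.4% and 40.6% over 21 sites, and KLHL14, a kelch protein gene, 36.0% and 50.1% over 21. In a stretch shared by POLR2F and SOX10, a neural crest factor gene, 20 sites had 35.6% and 61.5%. PKNOX2 (37.7% and 54.9%, 19 sites) and DMBX1 (60.3% and 43.3%, 18 sites), both homeobox genes, and GREB1 make up the 8. Of these, 5 were higher in the knockout and 3 lower.

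Few members passed the authors' own comparison, as the choice implies. In the authors' deposited table, 3 members had a q under 0.01 and a difference of at least 25 points, all lower in the knockout, beside 6.74% of all 35130 regions (4.57% higher and 2.17% lower). With a q under 0.01 at any difference there were 12, beside 9.06% of all regions, and 505 members had a q of 1. A q under 0.05 and a difference of at least 25 points were reached by 7 members in the authors' deposited table, beside 10.5% of all regions. A q under 0.01 and at least 10 points were reached by 11, beside 8.6%. The Kolmogorov-Smirnov p of the authors' deposited table was adjusted here by the Benjamini-Hochberg method. An adjusted value under 0.01 with at least 25 points was reached by 2 members, beside 4.12% of all regions. Among the members with a low q in the authors' deposited table were a region within the pseudogene IQSEC3P2 (63.3% in the control and 36.3% in the knockout over 18 sites, q = 0.00114) and a region 147 bases from KCNA7, a potassium channel gene (39.8% and 64.1% over 15 sites, q = 0.00128). The 3 members past both thresholds of the authors' deposited table were that at IQSEC3P2, a region 343 bases from ZBTB42, a zinc finger gene (63.7% and 35.5%, 5 sites), and a region 2018 bases from RNU6-1313P, a small RNA pseudogene (60.7% and 35.1%, 20 sites). How these q-values were computed, and from which counts, is not stated in the sources used here.

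Regions lay close to the limits of 35% and 65% on both sides. Around the lower limit the levels were unevenly spread, as given above for knockout means. Within 0.5 points of the lower limit lay 22 members and 27 regions just outside by their control mean, and 17 and 20 by their knockout mean. At the upper limit it was 26 and 16 by the control and 20 and 30 by the knockout. COL9A2, a cartilage collagen gene, was just inside (35.5% in the control and 37.01% in the knockout, 12 sites). SLC22A31, a transporter gene, with 34.8% and 63.9% over 40 sites, and LYL1, a leukemia-associated factor gene, with 58.4% and 34.8% over 22, were just outside. At the upper limit SLC6A20, a transporter gene (49.7% and 64.9%, 16 sites), was inside, and NTNG2, a netrin gene (38.6% and 65.1%, 12 sites), outside.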

How the data were processed

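Reduced representation bisulfite sequencing covered 3 control and 3 DNMT3B knockout libraries. Per the submitters' processing notes, FastQC, Trimmomatic, Bismark, HISAT2, methylKit and hg38 were used, without versions or roles. The authors deposited group means in percent, differences in percentage points, p-values and q-values per region. The program that made the table was not given in the sources used here. Counts and coverage were not analysed here.

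The base of the coordinates was checked on RefSeq promoter sequences. With 2 added to the file's start and 1 to its end, the first and last position were a CpG cytosine on either strand in all 2470 regions inside a window, and in 1900 regions there were more sites than CpG dinucleotides. Sites are therefore counted per strand, and coordinates are printed on that 1-based reading of hg38. A region counted for each RefSeq gene (GRCh38.p14) that it overlapped, or else for the nearest within 50000 bases. Start sites come from RefSeq promoter windows, which held none on chromosome 8. Genes of the zinc finger, protocadherin and HOX lists were found by symbol among protein-coding genes.

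Members and lists were chosen with earlier results of these data known. Named were the imprinted members, the 8 members with most sites, 5 on X, the 5 genes with most members, up to 2 genes per list, the 3 smallest q and the 3 runs with most sites; members of short lists were named beyond that rule, and some members that the rule names are not reported here. Regions at the limits are those with most sites. Shares have exact (Clopper-Pearson) 95% intervals for counting error only. Alternatives covered the site minimum, the band, chromosomes, merging, gene windows and the calling thresholds. Python 3.11.15, pandas 2.3.3, NumPy 2.4.6 and SciPy 1.17.1 were used, and the rule and distances were tested on simulated data.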

Additional observations from a re-analysis of the deposited data

How the results depend on the processing

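No paired analysis was possible because the files give 1 mean per group, and leaving out a replicate was not possible for the same reason. Of 58 alternatives, 37 stayed within the interval of the main value or within 1.5 times the main count, and 21 did not. The number of members moved from 926 to 130 with at least 10 sites, to 316 with a band of 40% to 60% and to 2529 with a band of 30% to 70%. With at least 10 sites, 58.5% of members had a deposited difference above 0 (55.2% in the main set), 11.8% of regions intermediate in the control were so in the knockout (19.3%), 40.8% lay near a gene end (32.1%), the density was 13.2 sites per 100 bases (11.1) and 1 imprinted gene had a member (4). The band of 40% to 60% gave 9.94%, 10.2 sites and 1 imprinted gene for the same 3 values other than position, and the band of 30% to 70% gave 34.2%, 13.8 sites and 8 genes. A share in a wider band is larger by construction. Gene ends within 500 bases held 22.0% of members, within 2000 bases 43.0%, and ends of protein-coding genes 22.9%. Members called in the authors' deposited table numbered 7 with q under 0.05 and 11 with a difference of at least 10 points, beside 10.5% and 8.6% of all regions, in place of 3. Chosen after seeing the data, the share of all regions that were intermediate in the knockout was 25.2% without regions at 0 in the control and 25% to about 33% in the knockout, and 23.7% without all regions at 0 in the control, in place of 19.9%. Depth is unknown, so no limit of detection can be given.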
